A study of Sorghum bicolor with 4 samples.

Results

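A group of 103 sorghum stem genes was moderately abundant at physiological maturity and low at the milk stage. The members were chosen by their measured values: a row of the deposited table with exactly 1 Sobic gene identifier, at least 5 and under 100 FPKM at physiological maturity, and under 1 FPKM at the milk stage. They are 103 of 31423 rows with 1 identifier and of 34458 rows in all. FPKM is the number of sequenced fragments scaled to transcript length and to the size of the library, so levels can be set side by side between genes. RNA came from the middle stem internode of sweet sorghum line ICSA38 grown in an open field, with 2 libraries at physiological maturity and 2 at the milk stage. The 4 libraries share line, tissue and growing conditions, and the labels give no treatment and do not say whether libraries came from separate plants. The table holds 1 value per gene and stage, so no spread between libraries can be given, no test was possible, and every comparison here is a description of these values.

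At the milk stage the developing grain is filling and draws sugar from the plant, while at physiological maturity the grain has reached its final dry weight and stops importing assimilate. The internode of a sweet sorghum stalk stores sucrose in its parenchyma, supplied by the phloem, and is stiffened by vascular bundles and fibres with lignified walls. Genes with a low level at one stage and a clear level at the other are commonly sought as stage markers, because a ratio against a low level is large. In RNA from a whole internode, more cells of a type and more RNA per cell cannot be told apart. The table does not pair Sobic identifiers with names, and 0 of the 103 members matched the RefSeq gene table used here, so the genes are given by identifier and no function is assigned to any of them. For the same reason the internode could not be checked against markers of its cell types.

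Most members lay close to the limits that chose them. Their median was 7.69 FPKM at maturity, against 0.4996 FPKM at the milk stage, and the middle 50 percent of the members ran from 5.93 to 11.6 FPKM at maturity, against 0.230 to 0.759 FPKM at the milk stage. At maturity 69 members were under 10 FPKM, 26 were at 10 to under 20 FPKM, 6 at 20 to under 40 FPKM and 2 above that. The median member exceeded 40.4% of the 16568 genes that had 1 identifier and reached 1 FPKM at either stage. In sum, the members held 1042 FPKM at maturity, against 50.6 FPKM at the milk stage. That was 0.156% of all FPKM at maturity, against 0.00632% at the milk stage, and the 3 most abundant members made up 12.9% of the members' sum at maturity.

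**Figure D1:**
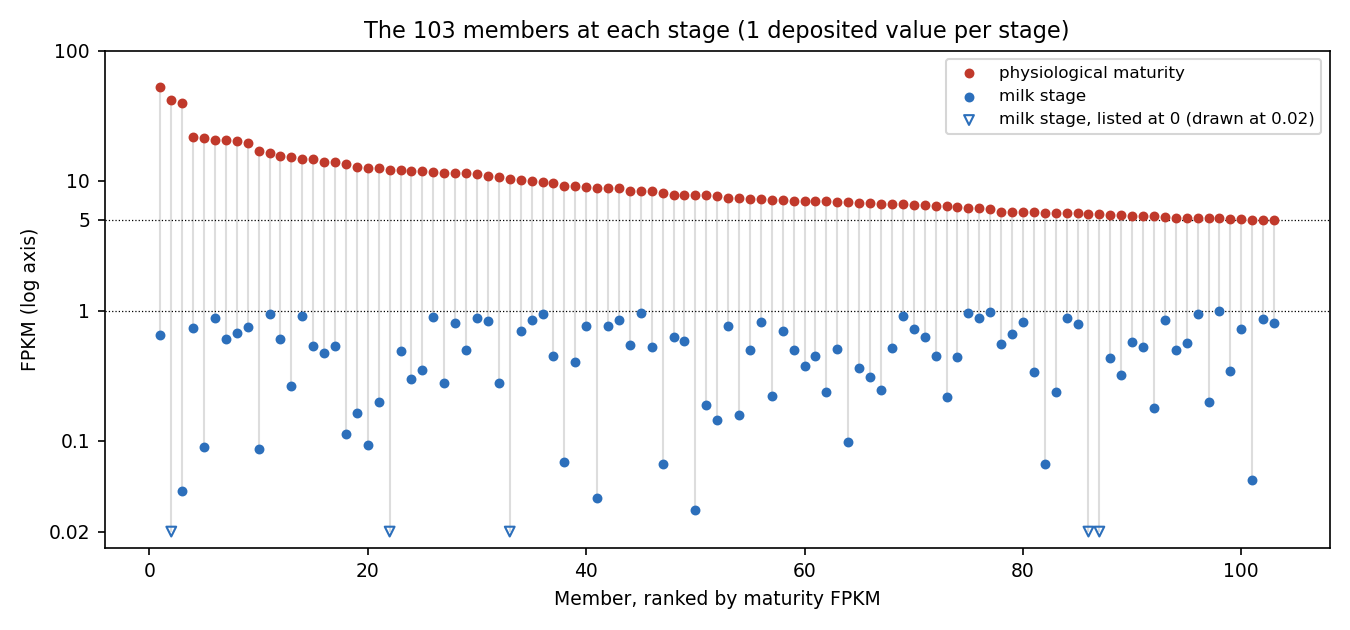
FPKM on a log axis of each of the 103 members, ranked by maturity FPKM, at physiological maturity (red) and at the milk stage (blue), 1 deposited value per stage. Open triangles mark the 5 members listed at 0 at the milk stage, drawn at 0.02, and dotted lines mark the limits of 5 and 1 FPKM. Only 3 members stand clear of the rest at maturity, while milk-stage values scatter below 1 FPKM at every rank.

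The label of genes being switched on goes further than the values do. At the milk stage 98 of the 103 members had a value above 0, and 51 of these reached 0.5 FPKM. A further 36 were at 0.1 to under 0.5 FPKM, 11 lay above 0 and under 0.1 FPKM, and 5 were listed at 0. A low milk-stage level, rather than absence, therefore describes most of the group. The number of fragments behind each value is not known, so the counting error of these low values is not known either, and the ratios below are uncertain most where the milk-stage value is smallest.

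Of the genes compared, 0.622% met the limits, a share that the rule itself sets. A difference of at least 2-fold after adding 1 FPKM to each value was shown by 11.3% of these genes in the upward direction. The limits force it on every member, since the smallest log2 difference they allow is 1.58. As a description, the median log2 difference of the members (maturity minus milk stage, 1 added to each FPKM) was 2.61, against 0.03 over the genes compared. Over the 98 members above 0 at the milk stage it ran from 1.63 to 5.29. Their plain ratio of maturity to milk stage had a median of 16.5, and 78 members reached a ratio of 10, 44 a ratio of 20 and 10 a ratio of 100. The limits force a plain ratio above 5 on each of these members. No share over other genes is given beside these counts, so they only describe the members. Size of difference alone did not set the group apart, because 66 genes outside it with a maturity level in the same range had a log2 difference at or above the members' median. These ran from 1.03 to 12.2 FPKM at the milk stage, with a median of 2.39 FPKM.

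**Figure D2:**
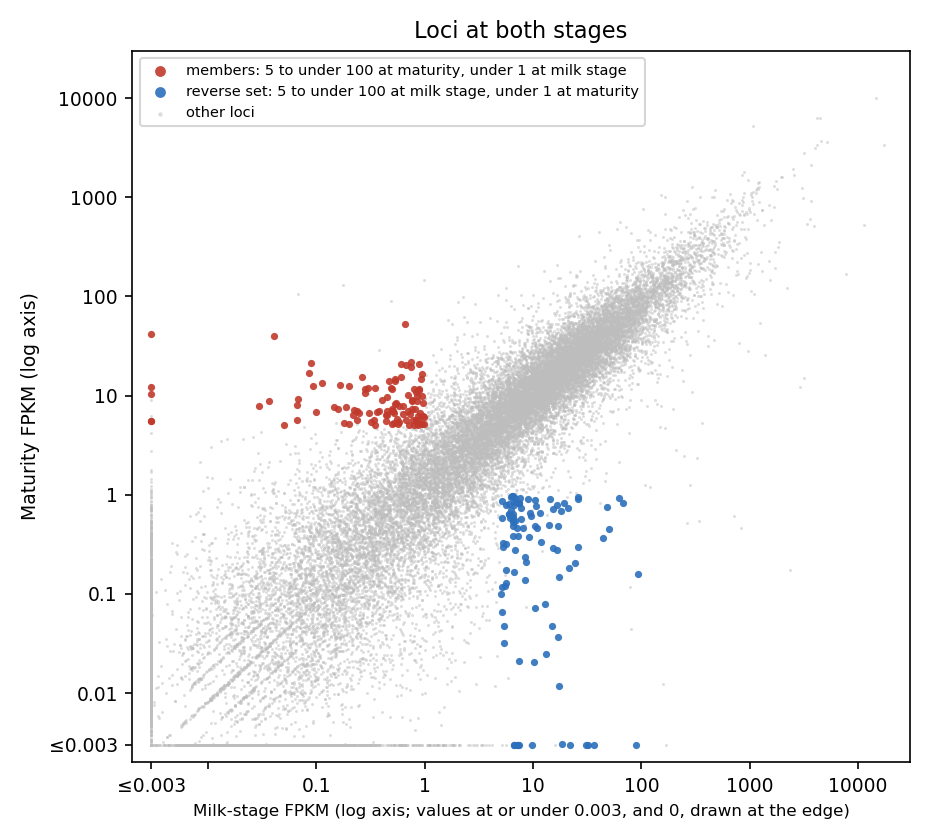
Maturity FPKM (vertical) against milk-stage FPKM (horizontal) of each locus of the table, on log axes with values at or under 0.003 and 0 drawn at the edge. Members are red, the reverse set of 98 genes at 5 to under 100 FPKM at the milk stage and under 1 FPKM at maturity is blue, and other loci are grey. Members are densest at the corner set by 5 FPKM and 1 FPKM, where they border the main cloud.

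The 10 most abundant members at maturity had between 16.9 and 52.6 FPKM there. Sobic.007G003500 was the most abundant, with 52.6 FPKM at maturity against 0.655 FPKM at the milk stage, a ratio of 80.3. Sobic.006G124800 had 42.1 FPKM at maturity and was listed at 0 at the milk stage. Sobic.007G223600 had 39.8 FPKM at maturity against 0.0407 FPKM at the milk stage, a ratio of 977 that was the largest among members above 0. These 3 genes stand apart from the others in abundance, the next member being near 22 FPKM.

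The other 7 of the 10 leading members ran from 16.9 to 21.7 FPKM at maturity, without a step to the next member, Sobic.002G365700, at 16.4 FPKM. Sobic.001G086050 had 21.7 FPKM at maturity against 0.738 FPKM at the milk stage, and Sobic.009G119200 had 21.3 against 0.0894 FPKM. Sobic.007G194000 was at 20.7 against 0.879 FPKM, and Sobic.008G157100 at 20.6 against 0.604 FPKM. They differed by little at maturity, but their ratios ran from 23.5 for Sobic.007G194000 to 238 for Sobic.009G119200. Sobic.004G064000 was at 20.2 FPKM at maturity against 0.670 FPKM at the milk stage, Sobic.002G164600 at 19.5 against 0.744 FPKM, and Sobic.001G469500 at 16.9 against 0.0862 FPKM. Of the 10 leading members, 3 came from chromosome 7 by their identifiers. That chromosome held 4.85% of all members and 6.65% of the genes at 5 to under 100 FPKM at maturity. So few genes do not show a concentration there.

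Besides Sobic.006G124800, 4 members were listed at 0 at the milk stage. Sobic.003G171900 had 12.1 FPKM at maturity and Sobic.003G169000 had 10.3 FPKM. Sobic.002G042700 had 5.59 FPKM and Sobic.002G163200 had 5.55 FPKM. No ratio can be given for these genes. Sobic.002G163200 was also the 1 member listed under its own Sobic identifier in the locus column, where the other 102 carried an MSTRG number, the default prefix of loci merged by a transcript assembler. Of the genes at 5 to under 100 FPKM at maturity, 10336 of 10339 had such a number. Very low but nonzero milk-stage values gave large ratios to members of modest abundance, as in Sobic.003G145800, with 7.79 FPKM at maturity against 0.0294 FPKM at the milk stage, and Sobic.005G011200, with 8.84 against 0.0365 FPKM. Both were named after their values were seen.

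Genes on either side of each limit were alike. Just inside the limit of 5 FPKM at maturity lay Sobic.006G035350 (5.01 FPKM at maturity, 0.800 FPKM at the milk stage), Sobic.001G363300 (5.02 and 0.867 FPKM) and Sobic.004G125400 (5.02 and 0.0500 FPKM). Just outside lay Sobic.005G046700 (4.98 FPKM at maturity, 0.884 FPKM at the milk stage), Sobic.001G481100 (4.88 and 0.856 FPKM) and Sobic.003G237600 (4.84 and 0.632 FPKM). Across the milk-stage limit, Sobic.001G263500 (5.14 FPKM at maturity, 0.989 FPKM at the milk stage), Sobic.006G120700 (6.09 and 0.981 FPKM) and Sobic.001G199700 (8.32 and 0.968 FPKM) were members. Sobic.007G142200 (9.47 FPKM at maturity, 1.001 FPKM at the milk stage), Sobic.002G357000 (5.94 and 1.007 FPKM) and Sobic.006G211000 (5.93 and 1.02 FPKM) were not. The upper limit was different, with a wide gap below it. No member lay above 52.6 FPKM, and only 3 genes under 1 FPKM at the milk stage reached 100 FPKM at maturity. These were Sobic.010G178000 (104.6 FPKM at maturity, 0.0679 FPKM at the milk stage), Sobic.010G253500 (131 and 0.177 FPKM) and Sobic.001G147500 (147 and 0.986 FPKM).

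The members are the upper end of a much larger group of genes with low values at the milk stage. In all, 1089 genes with 1 identifier were under 1 FPKM at the milk stage and at 1 FPKM or more at maturity, and 983 of them stayed under 5 FPKM at maturity. In the reverse direction, with at least 1 FPKM at the milk stage and under 1 FPKM at maturity, there were 888 genes, of which 784 stayed under 5 FPKM at the milk stage. With the same limits and the stages exchanged, the reverse set held 98 genes, close in number to the 103 members. The members were 0.996% of the 10339 genes in their range at maturity, and the reverse set was 1.002% of the 9779 genes in that range at the milk stage. This near equality holds for the values as deposited, which summed to 666768 FPKM at maturity, against 800834 FPKM at the milk stage. With both stages set to equal sums the members' limits selected 150 genes, and no size of the reverse set is given in that scaling. The balance varied with the limit. From 2 FPKM upward and under 100 FPKM, with under 1 FPKM at the other stage, 440 genes were low at the milk stage and 338 were low at maturity. From 20 FPKM upward and under 100 FPKM, 8 were low at the milk stage and 17 were low at maturity. Genes listed at 0 numbered 5 among the members and 11 in the reverse set. The median plain ratio of the stage where a gene was abundant to the stage where it was low was 16.5 among members and 23.4 in the reverse set, over the genes above 0.

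The position of the members in the genome was not used by the rule. It was read from the chromosome number and gene number in the identifier. Chromosome 1 held 18 members, chromosome 3 held 16, chromosome 2 held 13 and chromosome 4 held 10. Chromosomes 6, 8 and 10 held 9 each, chromosome 5 held 7, chromosome 9 held 6 and chromosome 7 held 5, and 1 member, Sobic.K028200, had no chromosome number. Set against the genes at 5 to under 100 FPKM at maturity, the share that were members ran from 0.673% on chromosome 9 to 1.75% on chromosome 8 and 1.57% on chromosome 5. In the reverse set chromosome 8 was again the highest, at 1.48%, while chromosome 9 stood at 0.713% and chromosome 2 was the lowest at 0.578%. With 5 to 18 members per chromosome, these shares rest on few genes.

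**Figure D3:**
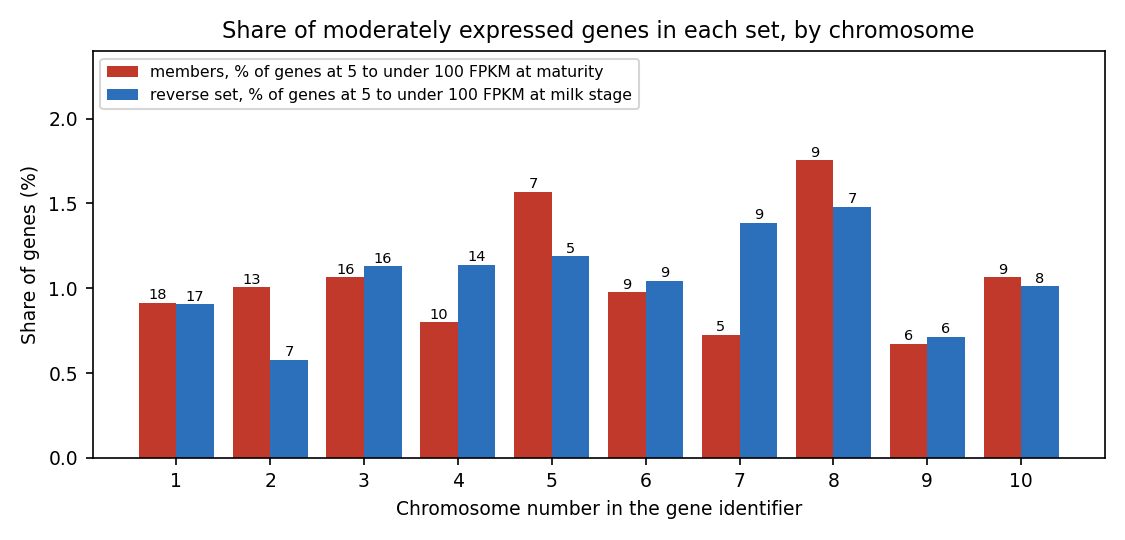
Members as a percentage of genes at 5 to under 100 FPKM at maturity (red) and the reverse set as a percentage of genes in that range at the milk stage (blue), by chromosome number in the identifier; the numerals on the bars are numbers of genes. The highest bar of members, 1.75%, is that of chromosome 8, and the lowest, 0.673%, that of chromosome 9.

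Gene numbers of the annotation mostly fall on multiples of 100. Among the members with a chromosome number, 10 had a number off these steps, 9.80%, against 15.3% in the reverse set, 4.61% of the genes at 5 to under 100 FPKM at maturity and 14.9% of all genes with 1 identifier. Successive members on a chromosome lay a median of 197.5 places apart in the order of gene numbers. Only Sobic.002G365700 and Sobic.002G365801 were direct neighbours, and there was no run of 3. Sobic.002G365700 had 16.4 FPKM at maturity against 0.936 FPKM at the milk stage, and Sobic.002G365801 had 11.5 against 0.801 FPKM, so the neighbours had similar levels at both stages. Members with another member at the next place were therefore 2 of 102, 1.96%, against 8 of 98, 8.16%, in the reverse set. Within 10 places the shares were 12 of 102 members, 11.8%, and 18 of 98 genes of the reverse set, 18.4%. No share over other genes is given beside these, so they do not show whether members are scattered or grouped.

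Genes numbered directly beside a member, and not members themselves, were more often higher at maturity than genes at large. There were 112 such genes with 1 FPKM or more at one stage or both, and a maturity value at least 2-fold above the milk-stage value was found for 22, 19.6%, against 11.3% of all genes compared. A further 11 were at least 2-fold lower, 9.82%, against 10.7%. The median log2 difference of these neighbours was 0.18, against 0.03 over the genes compared. Some of the neighbours belong to the chromosome 3 stretch described below. Without that stretch 19 of 109 neighbours were at least 2-fold higher, 17.4%, and 11 at least 2-fold lower, 10.1%. Genes beside the reverse set leaned the other way, with 5 of 122 at least 2-fold higher, 4.10%, and 23 at least 2-fold lower, 18.9%. With a minimum of 5 FPKM at either stage, 16 of 79 neighbours of members were at least 2-fold higher, 20.3%, against 11.7% of the genes at that minimum. Another 7 were at least 2-fold lower, 8.86%, against 11.5%. Their median log2 difference was 0.057, against 0.0009 over all genes at that minimum. Genes beside the reverse set at that minimum had 5.38% higher and 19.4% lower, with a median of -0.21. Back at the minimum of 1 FPKM, the share higher was 15.3% at 2 places from a member, 17.5% at 3 places, 11.7% at 4 places and 10.5% at 5 places. The share lower at these places was 5.41%, 11.7%, 12.6% and 12.3% in the same order, against 10.7% of all genes compared. At 4 and 5 places more of these genes were lower than higher. At 3 places the median log2 difference was 0.28, above that of the direct neighbours. With both stages set to equal sums, 28.9% of the direct neighbours of members were at least 2-fold higher and 6.14% lower, against 17.7% and 7.81% of all genes. Genes beside the reverse set then had 10.3% higher and 13.5% lower, and their median was 0.03, against -0.22 as deposited.

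**Figure D4:**
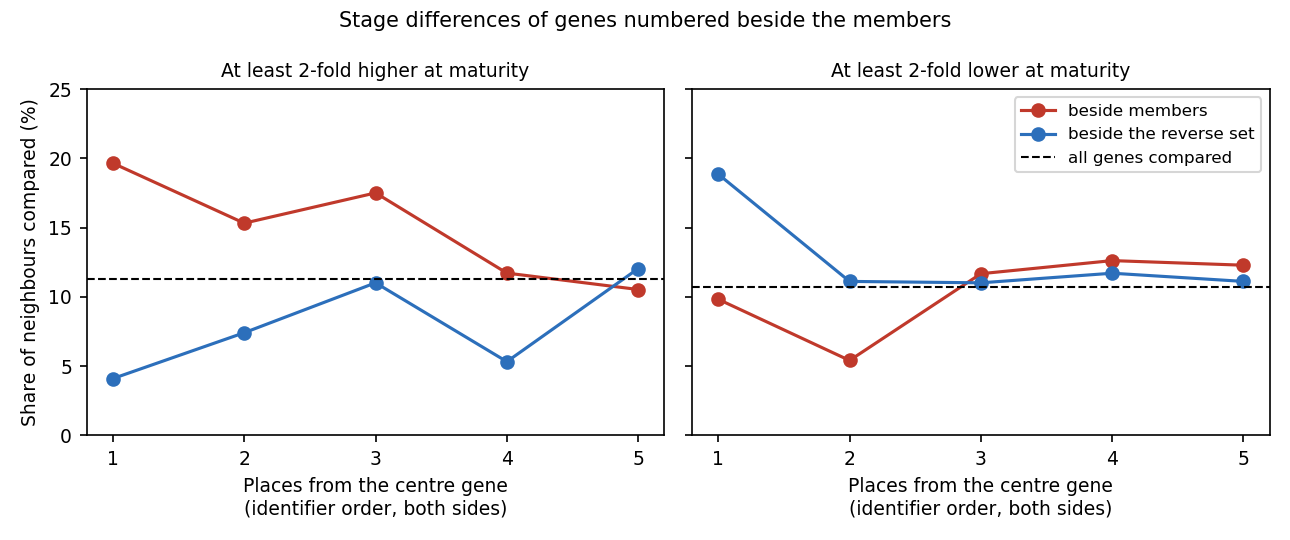
Percentage of compared genes at least 2-fold higher at maturity (left) and at least 2-fold lower (right), by distance in gene-number order from a member (red) or from a gene of the reverse set (blue), members of each set left out; dashed lines give the share over all genes with 1 identifier compared. The direct neighbours of members stand at 19.6% higher, and the direct neighbours of the reverse set at 18.9% lower.

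The most abundant member lay among such neighbours. Sobic.007G003400, numbered before Sobic.007G003500, was at 8.35 FPKM at maturity against 1.505 FPKM at the milk stage, and Sobic.007G003600, numbered after it, at 48.8 against 10.9 FPKM. Other members had neighbours that went the opposite way. Sobic.004G036600, beside the member Sobic.004G036500, was at 110 FPKM at maturity against 634 FPKM at the milk stage, while Sobic.004G036500 itself was at 6.51 against 0.627 FPKM. In 5 cases the neighbour was at 100 FPKM or more at maturity, and 3 of these 5 abundant neighbours were lower at maturity and 2 higher. At maturity 51 of 102 members were more abundant than both of their direct neighbours. The rule asks for at least 5 FPKM at maturity and so favours such an outcome. No share over other genes is given beside it, so it does not show whether this is a trait of the members. The neighbours named in this paragraph were chosen after their values were seen. The library kit was stranded but the strand setting of the counting is not given in the sources used here, so reads of overlapping neighbours may not be separable, and their part in these values was not tested.

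Counting genes with 1 identifier in number order, the longest stretch of consecutive genes at least 2-fold higher at maturity, after adding 1 to each value, contained a pair of members. It comprised 9 genes of chromosome 3, numbered from Sobic.003G168425 to Sobic.003G169200. The next longest stretch had 6 genes and 0 members, and the longest stretches of genes at least 2-fold lower had 4 genes. The members in the 9-gene stretch were Sobic.003G168425, with 9.14 FPKM at maturity against 0.0683 FPKM at the milk stage, and Sobic.003G169000, with 10.3 FPKM at maturity and listed at 0 at the milk stage. The other 7 genes were at 1.68 to 12.6 FPKM at maturity, against 0 to 2.56 FPKM at the milk stage, and 5 of them missed the milk-stage limit and 2 the limit at maturity. For the 6 of them above 0 at the milk stage the plain ratio ran from 4.52 to 7.87. The 2-fold minimum bounds this range from below. Leaving out the members and the gene listed at 0 removes large or undefined ratios, so the range is no measure of a shared change. Among them, Sobic.003G168600 had 12.6 FPKM at maturity against 2.56 FPKM at the milk stage, and Sobic.003G169200 had 8.44 against 1.07 FPKM. Summed over the 9 genes, the stretch held 71.4 FPKM at maturity against 9.38 FPKM at the milk stage, 7.61-fold higher. Each of these genes was chosen as at least 2-fold higher, so a higher sum was set in advance.

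**Figure D5:**
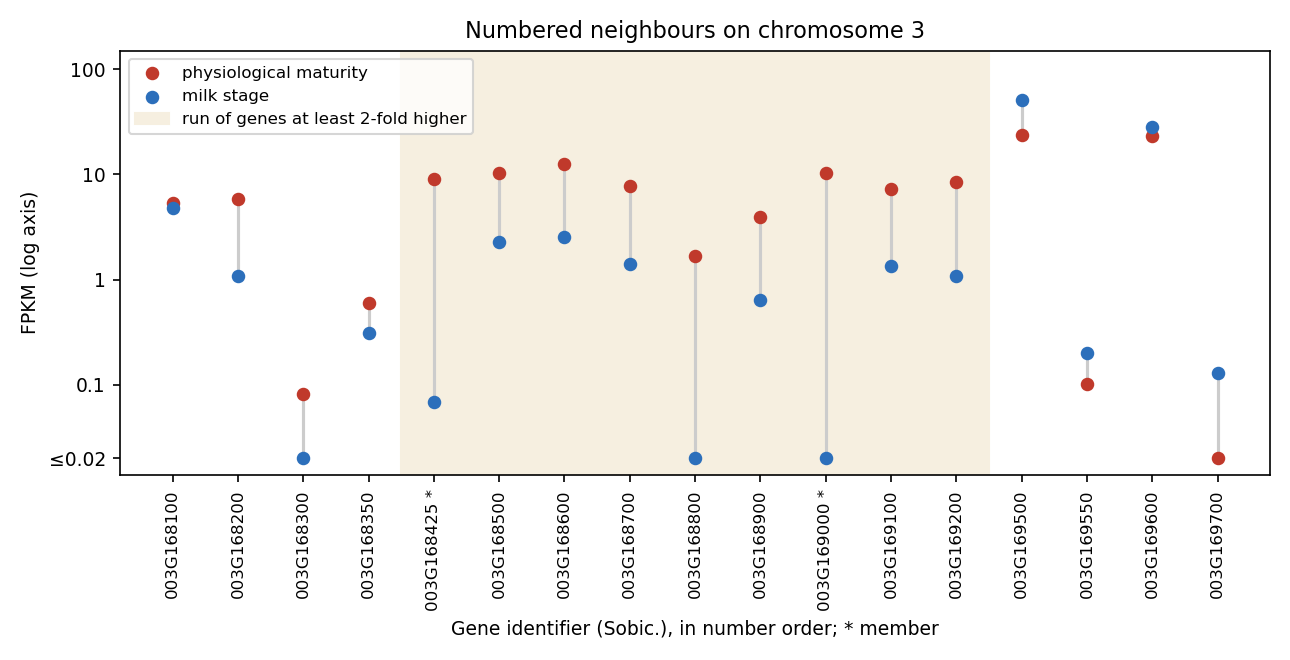
FPKM on a log axis at physiological maturity (red) and at the milk stage (blue) of consecutive genes of chromosome 3 in gene-number order, with values at or under 0.02 and 0 drawn at 0.02; the shaded genes form the 9-gene stretch and asterisks mark members. Within the shading each gene lies higher at maturity because the stretch was chosen that way. The sums there are 71.4 FPKM at maturity and 9.38 FPKM at the milk stage. Sobic.003G169500, the first gene right of the shading, is lower at maturity.

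The genes around the stretch were mixed. A locus that carries both Sobic.003G169300 and Sobic.003G169400 followed it and was also higher, at 4.78 FPKM at maturity against 1.05 FPKM at the milk stage. Sobic.003G169500, the next gene with a row of its own, was lower, at 23.8 FPKM at maturity against 51.3 FPKM at the milk stage, and on the other side Sobic.003G168350 and Sobic.003G168300 were under 1 FPKM at both stages. Beyond these, Sobic.003G168200 was higher, at 5.85 FPKM at maturity against 1.09 FPKM at the milk stage. To the right of the stretch, 27 genes with 1 identifier begin with Sobic.003G169500. Of these, 12 reached 1 FPKM at either stage, with a median log2 difference of -0.06. In this group 1 gene was at least 2-fold higher and 1, Sobic.003G169500 itself, at least 2-fold lower. The member Sobic.003G171900 comes next and opens a second group. From it to Sobic.003G173266 there were 15 genes, of which 10 reached 1 FPKM, 9 were higher at maturity and 5 were at least 2-fold higher. The most abundant of these, Sobic.003G172800, was at 25.4 FPKM at maturity against 7.08 FPKM at the milk stage. The bounds of the second group were chosen after its values were seen, and the member that opens it was chosen by its values. Whether genes of these stretches are near-identical copies that share reads was not tested.

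On chromosome 1 a pair of members stood 7 places apart. Sobic.001G086050 had 21.7 FPKM at maturity against 0.738 FPKM at the milk stage, and Sobic.001G086800 had 15.4 against 0.602 FPKM. Between them Sobic.001G086400, named after its values were seen, missed the milk-stage limit with 39.5 FPKM at maturity against 2.72 FPKM at the milk stage. Sobic.001G086600, also between them, was lower, at 23.6 FPKM at maturity against 34.2 FPKM at the milk stage. Differences under 2-fold were found for Sobic.001G086300, with 15.4 FPKM at maturity against 10.6 FPKM at the milk stage, and for Sobic.001G086500, with 163 FPKM at maturity against 98.3 FPKM at the milk stage. Further along the same chromosome, Sobic.001G369401 was at 6.21 FPKM at maturity against 0.956 FPKM at the milk stage and Sobic.001G369600 at 6.62 against 0.912 FPKM. Sobic.001G369500 between them was at 21.9 FPKM at maturity against 3.71 FPKM at the milk stage. On chromosome 8, Sobic.008G157100 and Sobic.008G157600 lay 4 places apart. Sobic.008G157600 had 9.60 FPKM at maturity against 0.451 FPKM at the milk stage, while Sobic.008G157200, beside Sobic.008G157100, was abundant at both stages with 60.1 FPKM at maturity and 45.2 FPKM at the milk stage.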

How the data were processed

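The authors deposited FPKM values in a single table with 2 value columns. Each heading is the title shared by the samples of a stage, so a column was taken to combine the 2 libraries of that stage. The submitters' processing notes name HISAT2 2.0.5, Bowtie2 2.2.9, Cuffdiff and cutadapt 1.8.1 without saying what each was used for. Not given in the sources used here are the genome build, the strand setting and how libraries were scaled, and sequencing depth is unknown. A test with limma was planned and could not be run on 1 value per stage. Gene lists and cell type markers defined by product descriptions could not be formed, since 0 identifiers matched the RefSeq table (Sorghum_bicolor_NCBIv3), and no coordinates were used.

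Log2 differences subtract the milk-stage value from the maturity value, each taken as log2(FPKM + 1), which understates differences of low genes. Genes were compared at 1 FPKM or more at either stage. Neighbours are genes with 1 identifier adjacent in gene-number order on a chromosome; loci with several identifiers or none are left out of that order. Members and rules were chosen with earlier results of these data known. Genes named by rule were the 10 most abundant members, those listed at 0, the 3 nearest each limit inside and outside, and any run of 3 adjacent members. Neighbour statistics, the stretches of neighbouring genes and the pairs of nearby members were added after the values were seen. Alternatives were other limits, pseudocounts of 0.1 and 0.5, equal sums, quantile normalization and median-of-ratios scaling. The counting was tested on simulated data. Scripts ran in Python 3.11.15 with pandas 2.3.3, numpy 2.4.6, matplotlib 3.10.9 and scipy 1.17.1.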

Additional observations from a re-analysis of the deposited data

How the results depend on the processing

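Group size followed the limits. It was 231 with 3 FPKM and 34 with 10 FPKM as the limit at maturity, and 52 with 0.5 FPKM and 286 with 2 FPKM as the limit at the milk stage. Equal sums gave 150 genes, of which 82 were among the 103; quantile normalization gave 89 and median-of-ratios scaling 98, and each of these was among the 103. Equal sums moved the median of all loci by 0.24. The share of members beside another member (1.96%) was 5.88% with 10 FPKM at maturity, and 0% with 0.5 FPKM and 5.34% with 2 FPKM at the milk stage. The share on chromosome 1 (17.5%) was 11.5% with 0.5 FPKM. The neighbours' median (0.18) was 0.057 at a minimum of 5 FPKM, 0.11 at places 2 to 5 and 0.45 with equal sums, where all genes had 0.27. The other 31 of 42 values lay within 1.5 times those reported. No paired analysis was possible because each stage has a single deposited column. Fits without single libraries and shares by product family were not run. Unknown depth limits the milk-stage values most.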

Other observations

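The same FPKM limits, applied to loci outside the single-gene rows, selected 12 loci with no gene identifier, with a median of 8.65 FPKM and a highest value of 90.5 FPKM at maturity, of which 3 were listed at 0 at the milk stage. In the reverse direction, 22 loci with no identifier were at 5 to under 100 FPKM at the milk stage and under 1 FPKM at maturity. Loci with several identifiers numbered 6 within the members' limits and 5 in the reverse direction, and their values cannot be assigned to single genes.

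The member Sobic.005G097800, with 6.38 FPKM at maturity against 0.216 FPKM at the milk stage, closed a stretch of 4 genes from Sobic.005G096300 that were at least 2-fold higher at maturity when genes under 1 FPKM at both stages were passed over. In that order the chromosome 3 stretch held 10 genes, starting at Sobic.003G168200. The other stretches of 4 or more genes at least 2-fold higher held 0 members. Among them were 6 genes from Sobic.008G117300 and 5 genes from Sobic.005G168600.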
